A study of Mus musculus with 7 samples.

Results

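Blood formation in the liver depends on ligands made by resident cells and on receptors carried by blood cells, and 9 genes of this kind were followed through 7 single-cell libraries of mouse liver. The genes were Epo, Epor, Kitl, Kit, Thpo, Vcam1, Itga4, Cxcr4 and Csf3r. They were found by symbol in the gene list of each matrix, and each of the 9 matched 1 entry among 32285 genes in all. The libraries came from the ABC-Myc mouse model of hepatoblastoma, a childhood liver cancer. In these mice human c-MYC sits behind a floxed stop under the ubiquitous CAG promoter, and Alb-Cre, driven by the albumin enhancer and promoter, turns it on in the hepatocyte lineage of C57BL/6J animals. Healthy livers came from mice that lacked Cre, the MYC allele or both. The tissue was perfused, digested with collagenase and loaded whole on a 10x Genomics 3' kit (V3.1).

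Libraries NEJ634, NEJ687, NEJ709 and NEJ723 are called tumor here and NEJ638, NEJ654 and NEJ677 healthy. The sample labels describe all 7 libraries alike as the hepatoblastoma model. The study's text names the 4 tumors, while NEJ638, NEJ654 and NEJ677 are not named there and were taken as healthy because they remained, so the healthy set is inferred. The labels and the study's methods speak of single cells and the series description of single nuclei, and which was loaded is not settled here. The description of NEJ709 in the labels also names NEJ634. The genotype and age of each mouse are not given in the sources used here. With no labelled groups and 1 library per animal, no comparison between the libraries was tested. Every level is given per library as UMIs (unique transcript tags) of the gene per 1000000 UMIs in the same pool of cells, abbreviated CPM, with an exact 95% Poisson interval in parentheses where it matters. These intervals cover counting error only and say nothing about the spread between animals.

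Erythropoietin, the Epo product, is the hormone that keeps red cell precursors alive, and it signals through the receptor encoded by Epor, with the kinase JAK2 and the factor STAT5 downstream. Stem cell factor, encoded by Kitl, binds the receptor tyrosine kinase KIT on stem and progenitor cells and on mast cells. Thrombopoietin, encoded by Thpo and made mainly by hepatocytes, drives platelet production. VCAM1 is an adhesion molecule on macrophages and activated endothelium, and it holds blood cells through an integrin whose alpha chain is encoded by Itga4. CXCR4 answers the chemokine CXCL12 and retains blood cells in the niche, and CSF3R is the receptor for the neutrophil growth factor G-CSF. The fetal liver is the main site of blood formation before birth, and the adult liver can resume this role.

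The promoters of Epor, Itga4, Kit and Csf3r are shown because these receptors are the ones followed below through the red cell, vessel, monocyte and neutrophil classes. Of the 9 genes, 8 had an entry in the RefSeq promoter table for the mouse assembly GRCm38.p6, and Vcam1 was not matched. The 250 bases before the start annotated there are printed 5′ to 3′ on the strand of the gene, and capitals mark a motif match. For Epor, Kit and Csf3r this start differs from the gene bounds given below, which come from another annotation. The Kit and Csf3r windows run into those bounds, and the Epor window ends short of them. Distances of motifs count from the RefSeq start. The windows are chr9:21963577-21963826 on the minus strand for Epor, chr2:79255176-79255425 on the plus strand for Itga4, chr5:75574737-75574986 on the plus strand for Kit and chr4:126024409-126024658 on the plus strand for Csf3r.
Epor: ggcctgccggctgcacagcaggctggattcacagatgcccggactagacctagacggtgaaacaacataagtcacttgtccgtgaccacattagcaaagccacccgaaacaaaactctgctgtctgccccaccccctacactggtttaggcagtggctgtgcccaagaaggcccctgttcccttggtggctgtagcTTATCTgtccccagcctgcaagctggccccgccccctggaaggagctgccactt
Itga4: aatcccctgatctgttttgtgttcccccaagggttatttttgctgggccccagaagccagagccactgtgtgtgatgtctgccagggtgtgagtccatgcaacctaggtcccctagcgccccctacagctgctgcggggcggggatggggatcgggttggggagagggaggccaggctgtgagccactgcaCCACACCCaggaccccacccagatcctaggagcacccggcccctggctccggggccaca
Kit: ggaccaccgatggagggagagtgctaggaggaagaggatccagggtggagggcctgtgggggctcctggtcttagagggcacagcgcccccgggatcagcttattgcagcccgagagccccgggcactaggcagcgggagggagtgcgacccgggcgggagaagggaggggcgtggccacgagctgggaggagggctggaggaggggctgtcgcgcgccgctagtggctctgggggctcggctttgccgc
Csf3r: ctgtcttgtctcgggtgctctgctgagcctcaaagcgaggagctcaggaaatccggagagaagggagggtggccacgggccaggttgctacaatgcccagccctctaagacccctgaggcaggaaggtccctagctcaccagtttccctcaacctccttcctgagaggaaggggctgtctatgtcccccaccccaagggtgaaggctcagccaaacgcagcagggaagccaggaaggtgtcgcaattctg
Motifs were searched on both strands in the 250 bases of the 10 entries of these 8 genes, since Kit and Thpo have 2 entries each. The GATA motif AGATAA occurred in Epor, on the opposite strand and 54 bases before the start (read as TTATCT in the printed strand), and in 9.99% of the 32851 promoters in the table. The CACCC motif CCACACCC occurred in Itga4, 59 bases before the start, and in 3.20% of all promoters. The GATA motif TGATAA occurred in the Epo window, 191 bases before the start, and in 7.94% of all promoters. The ETS motif AGGAAGT (7.69% of promoters), the C/EBP motif TTNNGCAA (9.56%) and a 13-base HNF1 motif (0.00913%) had no match in any of the 10 entries. A match describes letters only, and the absence of a match covers only these windows.

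The files held 547476648 UMIs in 15553858 barcodes, with 40214395 to 132485391 UMIs per library, and 34.2% of UMIs lay outside the barcodes called as cells. After filters, 70757 cells were analysed, from 6585 to 16730 per library, and median UMIs per kept cell ran from 2092.0 to 4630.0. Cells were clustered without the 9 genes into 35 clusters, of which 24 were named by marker genes and 11 were left unnamed and kept as categories of their own. Names carry "-like" because they rest on markers alone. Library NEJ709 stood apart, since 91.2% of its cells fell into an unnamed cluster of low contrast (cluster 34), and values of NEJ709 over all cells rest on that cluster. The labelled tissue was represented by hepatocyte-lineage-like cells in 6 libraries with at least 20 such cells. NEJ723 did not reach this number and held 1486 cholangiocyte-like cells. Barcodes called in more than 1 library, 1989 kept cells in all, were left out. Free RNA from broken cells was read from barcodes of low rank. In NEJ634 these barcodes held 210 to 952 UMIs, which overlaps the range of kept cells, and in the other libraries at most 460. Of the 68463 candidate barcodes of NEJ634 20000 were tested, so uncalled cells may be among its low-rank barcodes. Of the 63 levels formed by 9 genes and 7 libraries, 37 lay above free RNA by their intervals.

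Summed over all analysed cells, Epor was higher in the tumor libraries, while Kitl and Kit were lower in them. Epor stood at 12.7 CPM in NEJ634, 37.6 in NEJ687, 21.8 in NEJ709 and 27.9 in NEJ723, against 6.19 in NEJ638, 7.34 in NEJ654 and 5.24 in NEJ677. These 2 sets of libraries did not overlap, as was so in the same direction for 9.33% of the 13521 genes with a mean of at least 1 CPM. Kitl stood at 18.2, 3.53, 2.76 and 4.55 CPM in the tumor libraries, in the order used for Epor, and at 40.5, 24.5 and 25.5 CPM in the healthy ones. Kit stood at 25.5, 18.0, 13.2 and 22.7 CPM against 225, 83.9 and 127 CPM. Both were lower in every tumor library, a pattern found in 37.1% of the 13521 genes, so the direction alone did not set Kitl and Kit apart. Fewer cells of a type and less RNA per cell cannot be told apart in such sums, which is why the levels within each class follow.

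The other measured genes overlapped between the sets when summed over all cells. Vcam1 ranged from 91.1 to 253 CPM in the tumor libraries and from 67.6 to 101 CPM in the healthy ones, with NEJ634 highest. Itga4 ranged from 77.5 to 116 CPM against 59.4 to 132 CPM, and Csf3r from 18.7 to 38.9 CPM against 23.8 to 29.4 CPM. The Csf3r sums depended on how cells were called, since the 99th percentile rule alone gave 6.51 to 31.6 CPM against 7.31 to 11.5 CPM. Cxcr4 ranged from 39.0 to 111 CPM in tumor libraries and from 75.1 to 268 CPM in healthy ones, where NEJ638 was highest. Thpo stood at 1.55, 0.619, 0.293 and 0.558 CPM against 2.10, 1.81 and 1.51 CPM, with NEJ634 inside the healthy range, and in 0 of the 7 libraries was Thpo above free RNA by its interval, which held up to 4.86 CPM. In NEJ634 the barcodes read as free RNA, which overlap the cells in UMI count, also held more Cxcr4 (179 CPM), Itga4 (104 CPM) and Csf3r (40.2 CPM) than the cells did. Free RNA likewise held more Kitl in NEJ723 (9.12 CPM), and the interval of Kit in free RNA of NEJ687 (15.1 to 24.7 CPM) took in the level of the cells. Epor was not above free RNA by its interval in NEJ709 and NEJ677, and Kitl was above free RNA by its interval in NEJ634 but not in the other 3 tumor libraries. In NEJ709 Vcam1, Itga4 and Csf3r were not above free RNA by their intervals either.

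**Figure D1:**
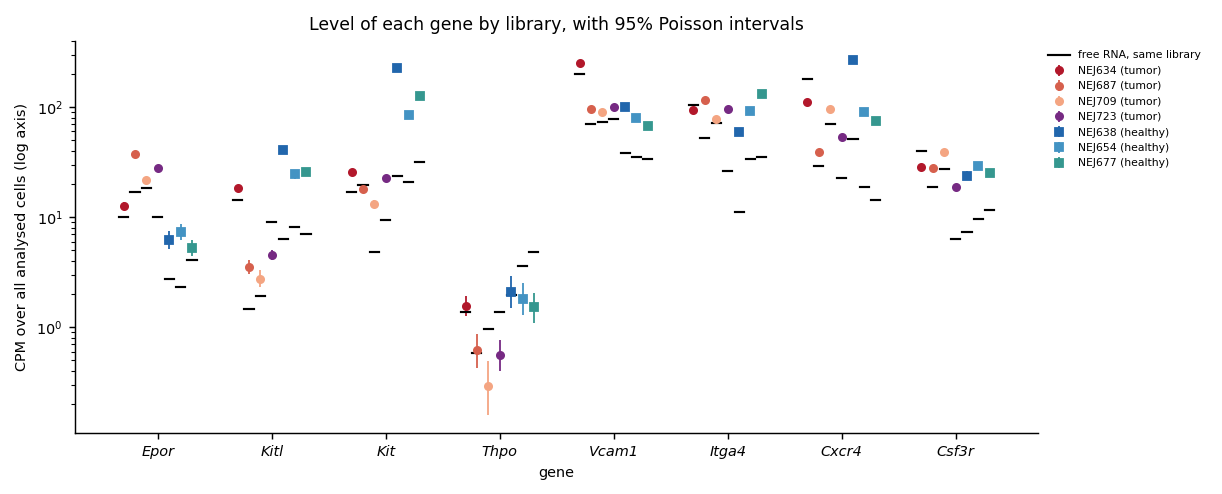
Level of 8 genes summed over all analysed cells of each library, in CPM on a log axis, with circles for tumor libraries, squares for healthy libraries, bars for 95% Poisson intervals and a black dash for the free RNA of the same library. Epor circles lie above all Epor squares, Kitl and Kit circles lie below their squares, and no Thpo interval lies above its dash.

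Each of the 8 measured genes had a cell class that led for it in most libraries. In each library the class or unnamed cluster with the highest CPM was taken as leading, among those with at least 20 cells and more than 3 UMIs of the gene. Epor led in erythroid-like cells in 5 of 5 libraries with that class, Kitl and Kit in endothelial-like cells in 6 of 6, and Csf3r in mature neutrophil-like cells in 7 of 7. Vcam1 led in macrophage-like cells in 6 of 7 libraries, Thpo in hepatocyte-lineage-like cells in 5 of 6 (those of NEJ709 held 1 UMI and did not count), Itga4 in monocyte-like cells in 5 of 7 and Cxcr4 in B-like cells in 5 of 7. Among 15189 genes, the share that led as often in the same class was 1.77% for the erythroid-like, 2.31% for the endothelial-like, 1.66% for the mature neutrophil-like, 1.17% for the macrophage-like, 2.31% for the hepatocyte-lineage-like, 1.25% for the monocyte-like and 3.02% for the B-like class. Where that class led, counting intervals of the leading and the next category were separate in all 7 libraries for Csf3r, in 2 for Epor, 2 for Kitl and 4 for Kit. They were separate in 6 for Vcam1, 5 for Itga4 and 2 of 5 for Cxcr4. For Thpo they counted as separate in 3 of 5, but in NEJ687 and NEJ638 no other category had more than 3 UMIs.

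**Figure D2:**
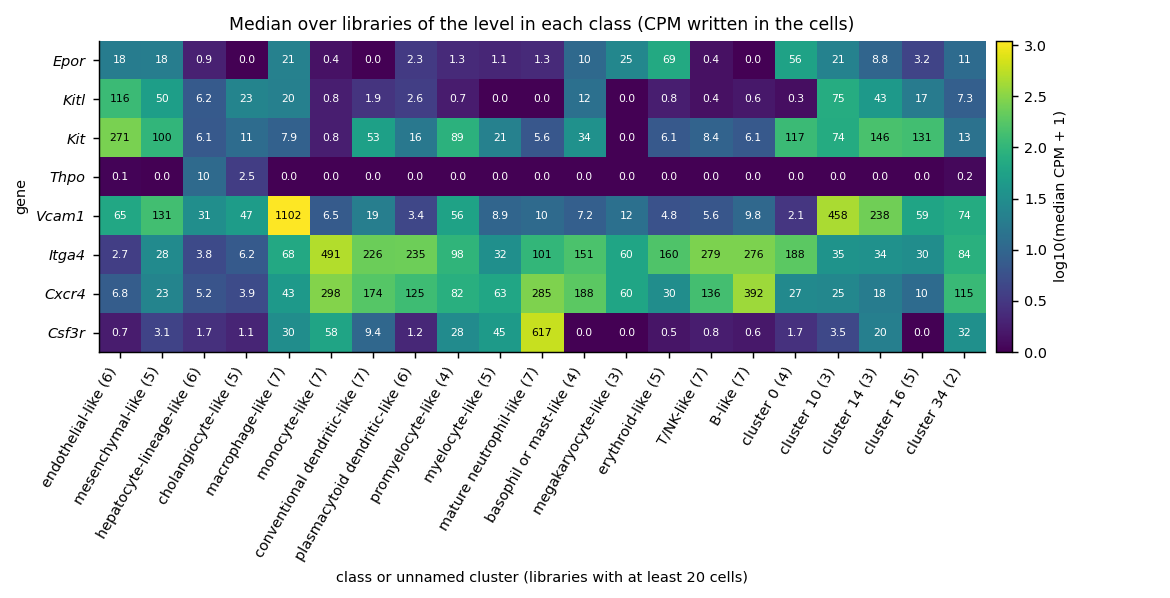
Median over libraries of the CPM of 8 genes (rows) in each class or unnamed cluster with at least 20 cells (columns, number of libraries in parentheses), with color on a log10 scale. Kitl and Kit are brightest in the endothelial-like column, Vcam1 in the macrophage-like, Csf3r in the mature neutrophil-like and Epor in the erythroid-like column.

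Epo itself was almost absent from these livers. A single Epo UMI (chromosome 5, 137483020 to 137533242, minus strand, GRCm38) was found among all barcodes of the 7 libraries, in a cholangiocyte-like cell of NEJ723, and none lay outside the called barcodes. In the other 6 libraries a count of 0 allows up to 3 counts, or 0.0494 to 0.170 CPM, and Epo below that level was not detectable at this depth.

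Its receptor was highest in erythroid-like cells, but not in the cells richest in haemoglobin. Epor (chromosome 9, 21958897 to 21963506, minus strand) reached 62.4 CPM in erythroid-like cells of NEJ634, 68.9 (65.3 to 72.6) in NEJ687, 69.1 (59.1 to 80.3) in NEJ709 and 73.0 (69.1 to 77.1) in NEJ723. The intervals of the 4 tumor libraries overlapped, that of NEJ634 (114 UMIs) included. The healthy library NEJ638 gave 43.2 CPM (19.8 to 82.1) from 9 UMIs, an interval that takes in all 4 tumor values, while NEJ654 and NEJ677 held fewer than 20 such cells. Haemoglobin took 51.8% of the UMIs of these cells in NEJ638 and 24.4%, 35.5%, 44.2% and 41.3% in NEJ634, NEJ687, NEJ709 and NEJ723. With haemoglobin and mitochondrial UMIs left out of the total, Epor was 100.2 CPM in NEJ638 and 84.3, 108, 128 and 129 CPM in the tumor libraries, so the order of NEJ638 and NEJ634 depended on the scale. Erythroid-like cells numbered 162, 2345, 250 and 2567 in the tumor libraries and 65, 2 and 0 in the healthy ones. The unnamed clusters 33 and 18, with 88.9% and 76.2% haemoglobin, held Epor at 0 to 1.56 CPM and 0 to 3.43 CPM. Cluster 33 had 1345, 389 and 804 cells in NEJ638, NEJ654 and NEJ677. The class was made of cluster 1, led by the histone genes Hist1h1a, Hist2h2ac and Hist1h1b with Gfi1b and Plek2, and cluster 2, led by Slfn14, Tmcc2, Xpo7, Apol11b and Gm20161. The unnamed cluster 0, led by Trnp1, Gm15915, Car1, C1qtnf12 and Prss50, came next in the 4 tumor libraries, with Epor from 49.9 to 62.8 CPM. Erythroid-like cells and cluster 0 together carried most Epor UMIs of NEJ687 (67.9% and 26.1%) and NEJ723 (65.0% and 25.4%). In NEJ634 erythroid-like cells held 114 of 769 Epor UMIs. In NEJ709 they held 171 of 1042, and cluster 34 held 817.

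Outside the red lineage, Epor was lower but present in vessel and stromal classes. Endothelial-like cells gave 21.4 CPM in NEJ634, 29.3 in NEJ687 and 30.6 in NEJ723, against 12.8, 14.2 and 12.9 CPM in NEJ638, NEJ654 and NEJ677. The sets did not overlap, as for 7.99% of the 8615 genes with a mean of at least 10 CPM in that class. But the tumor values rest on 10 to 17 UMIs. In the healthy libraries endothelial-like cells held 67.9%, 42.0% and 59.7% of all Epor UMIs. Mesenchymal-like cells led in NEJ654 with 38.9 CPM (27.5 to 53.4) and in NEJ677 with 18.3 CPM (7.37 to 37.8). The 9 endothelial markers, all detected, summed to 5411 and 5354 CPM in these mesenchymal-like cells, against 15189 and 14146 CPM in the endothelial-like cells of the same libraries. Their part in the Epor level was not tested. T/NK-like cells, which served as a low reference, stayed at or below 5.06 CPM. The share of free RNA, estimated as an upper limit from markers of other classes, differed between classes, at 1.65% to 10.5% in T/NK-like, 1.34% to 7.52% in endothelial-like, 8.44% to 35.9% in macrophage-like and 4.32% to 31.8% in hepatocyte-lineage-like cells, so T/NK-like cells can understate the background of the last 2.

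Macrophage-like cells also held Epor, at 20.7, 22.8, 34.6 and 21.1 CPM in the tumor libraries and 6.83, 8.27 and 6.23 CPM in the healthy ones. Epor reached the class minimum, a mean of 10 CPM, only through the tumor libraries, so no separation is read from it. Csf3r in these cells was lower in the tumor libraries at 13.2, 7.41 and 10.2 CPM in NEJ687, NEJ709 and NEJ723 against 30.7, 33.4 and 32.5 CPM, beside 15.7% of 7726 genes. NEJ634 lay just under the healthy values, and its interval took in all 3 of them. The summed level of the 12 erythroid markers in the same macrophage-like cells was 569.5 to 1029 CPM in tumor libraries and 27.0 to 73.4 CPM in healthy ones. In NEJ654 and NEJ677, 5 of the 12 markers were at 0, Gata1 and Epb42 among them. The part of this erythroid RNA in the Epor level was not tested.

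Among erythroid-like cells, the receptors followed different courses along the share of haemoglobin UMIs. Cells were divided into bins by that share, and levels are per 1000000 UMIs without haemoglobin and mitochondrial UMIs. Kit stood at 88.6 CPM in NEJ634, 20.9 in NEJ687 and 17.1 in NEJ723 in cells with under 10% haemoglobin, and at 5.63 or less in the higher bins of the 4 tumor libraries. Epor was highest between 25% and 50% haemoglobin in the 4 tumor libraries, at 180.1 (123 to 254), 168 (154 to 184), 168 (132 to 209.7) and 195 CPM (179 to 212). For comparison, Epor in the cells under 10% was 51.7 CPM in NEJ634, 73.0 in NEJ687 and 78.0 in NEJ723. In NEJ709 the bin from 50% to 75%, at 159.7 CPM, did not differ from the peak beyond its interval. In NEJ634 the intervals of the bins from 10% to 25% (84.2 to 189) and from 50% to 75% (32.7 to 126) met that of the peak. The highest Epor value lay in the same bin in all 4 libraries when haemoglobin and mitochondrial UMIs were counted in the total. In NEJ634 it was then 111 CPM (32 UMIs), against 104 CPM (26 UMIs) from 10% to 25%.

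Itga4 and Cxcr4 were followed over the same bins. Itga4 was highest from 50% to 75% haemoglobin in NEJ687 (342 CPM), NEJ709 (501 CPM) and NEJ723 (352 CPM) but from 10% to 25% in NEJ634 (476 CPM). NEJ634 (386 to 581) did not differ beyond its interval from its own bin of 50% to 75% (464 CPM). In NEJ709 (426 to 585) and NEJ723 (327 to 378) the peak interval met that of the bin from 25% to 50% (333 to 449.8 and 305 to 348). No difference in course between libraries is read from this. With the total taken over all UMIs, the Itga4 peak moved to the bin from 10% to 25% in all 4 libraries, so its place along the bins depended on the scale. Cxcr4 was highest from 25% to 50% in NEJ687 (64.0 CPM), NEJ709 (86.0 CPM) and NEJ723 (67.0 CPM), and from 10% to 25% in NEJ634 (79.4 CPM). The peak did not differ beyond its interval from the bin of 10% to 25% in NEJ709 (80.0 CPM). Nor did it from the bin of 25% to 50% in NEJ634 (67.6 CPM). The bins are ranges of a measured share and not cell types.

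**Figure D3:**
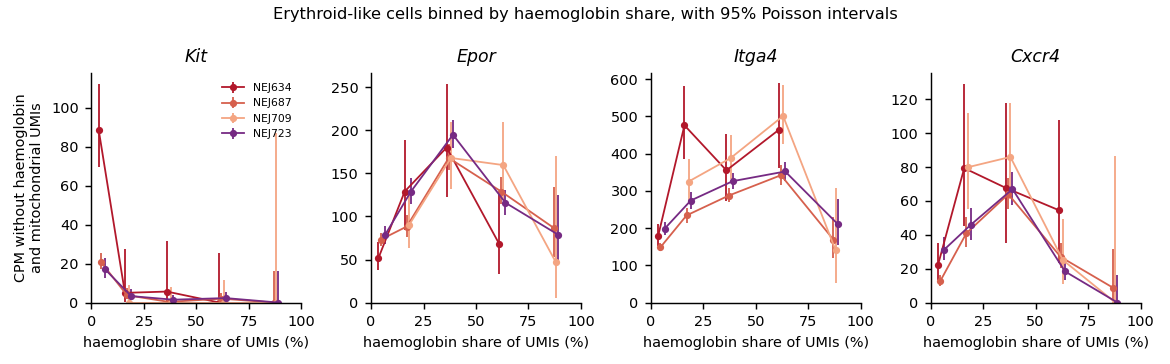
Levels of Kit, Epor, Itga4 and Cxcr4 in erythroid-like cells of the 4 tumor libraries, in UMIs per 1000000 UMIs without haemoglobin and mitochondrial UMIs, against the haemoglobin share of UMIs (bins with at least 20 cells, bars are 95% Poisson intervals). Kit is high only in the lowest bin, and the highest Epor point lies between 25% and 50% in each library, with bars of neighbouring bins that meet it in NEJ634 and NEJ709.

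The stem cell factor gene and its receptor were both highest in endothelial-like cells in the 6 libraries with that class. Kitl (chromosome 10, 100015630 to 100100416, plus strand) in endothelial-like cells gave 137 CPM (108 to 172) in NEJ634, 138 (109 to 171) in NEJ687 and 171 (129 to 222) in NEJ723. The healthy libraries gave 93.8 CPM (86.1 to 102) in NEJ638, 72.2 (64.5 to 80.6) in NEJ654 and 76.3 (69.7 to 83.4) in NEJ677. Within this class the tumor libraries were thus higher, the opposite order to the sum over all cells, and 7.99% of 8615 genes separated the same way. NEJ709 held 7 endothelial-like cells and gave no value, and there Kitl led in cholangiocyte-like cells at 47.3 CPM (24.5 to 82.7) and Kit in cluster 0. The tumor values came from 51, 62 and 29 cells, against 2137, 1197 and 1383 cells in the healthy libraries. The unnamed cluster 10, whose markers came nearest to endothelium and of which 94.8% lay in NEJ634, is not part of this class. Its Kitl was 35.3 CPM (25 cells) in NEJ687 and 91.2 CPM (21 cells) in NEJ723, and the 1162 cells of NEJ634 had an interval of 66.0 to 84.8 CPM. None of the 3 values lay above the 93.8 CPM of NEJ638. The higher Kitl of the tumor libraries thus holds for the named class alone. The unnamed and shallow cluster 16, also nearest to endothelium by its markers, held Kitl at 0 to 50.3 CPM in 5 libraries.

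The subset of endothelium was not the same in all libraries. Cluster 17, led by Ackr3, Colgalt2, Sox7, Tspan7 and Stox2, made up most of the class in NEJ638, and cluster 15, led by Gm30938, Jam2, Clec4g, Gpihbp1 and Cyp4b1, in the other 5. In the 88 cells of cluster 15 in NEJ638, Kitl was 167 CPM, above the 137 to 152 CPM of the tumor libraries in that cluster, so the order did not hold for cluster 15 alone. Mesenchymal-like cells were next to endothelium, with Kitl at 110.1 CPM in NEJ634 and 84.6 CPM in NEJ638, where the intervals of both classes overlapped. Endothelial markers summed to 2244 and 3827 CPM in these mesenchymal-like cells, and their part in the Kitl level was not tested. Hepatocyte-lineage-like cells held 2.46 to 14.1 CPM.

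Kit (chromosome 5, 75574916 to 75656722, plus strand) in endothelial-like cells reached 271 CPM (229.9 to 318), 124 (97.0 to 156) and 141 (103 to 187) in NEJ634, NEJ687 and NEJ723. The healthy libraries gave 613 CPM (593 to 633) in NEJ638, 270.0 (255 to 286) in NEJ654 and 419 (404 to 435) in NEJ677. The sets met at NEJ634 and NEJ654, whose values did not differ beyond their intervals. NEJ638 was highest, and its cluster 17 stood at 634 CPM, while its 88 cells of cluster 15 stood at 182 CPM. The unnamed cluster 16, which is not part of the class, held Kit at 248, 131 and 312 CPM in NEJ638, NEJ654 and NEJ677. It had 1127 cells in NEJ654 and 468 in NEJ677. Endothelial-like cells held 89.1%, 70.0% and 79.6% of all Kit UMIs in the healthy libraries but 9.82%, 7.52% and 2.82% in NEJ634, NEJ687 and NEJ723. The 9 endothelial markers, all detected, summed to 8725 to 10313 CPM in these cells of the tumor libraries and to 11797 to 15189 CPM in those of the healthy ones.

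In the tumor livers Kit was also carried by blood precursors. Cluster 0 gave 129 CPM in NEJ634, 58.2 in NEJ687, 142 in NEJ709 and 104 in NEJ723, and held 50.7% of the Kit UMIs of NEJ687 and 52.6% of those of NEJ723. In NEJ709 it held 54 of 630 Kit UMIs, and in NEJ634 it had 64 cells, or 0.383% of that library. Each healthy library held fewer than 20 cells of cluster 0. Promyelocyte-like cells, which make neutrophil granule proteins, gave 46.0, 64.4, 113 and 124 CPM in the tumor libraries. Conventional dendritic-like cells held Kit in each library, from 34.4 to 88.5 CPM. After each cell was thinned to 500 UMIs, 25.5%, 4.84% and 3.45% of endothelial-like cells in NEJ634, NEJ687 and NEJ723 had a Kit UMI, and 24.2%, 12.4% and 17.2% in NEJ638, NEJ654 and NEJ677. Unthinned, the shares were 43.5% to 72.5%, and thinned T/NK-like cells had at most 1.68%. The thinned share of NEJ634 has a wide interval (14.3% to 39.6%, Clopper-Pearson), and no order is read from it.

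**Figure D4:**
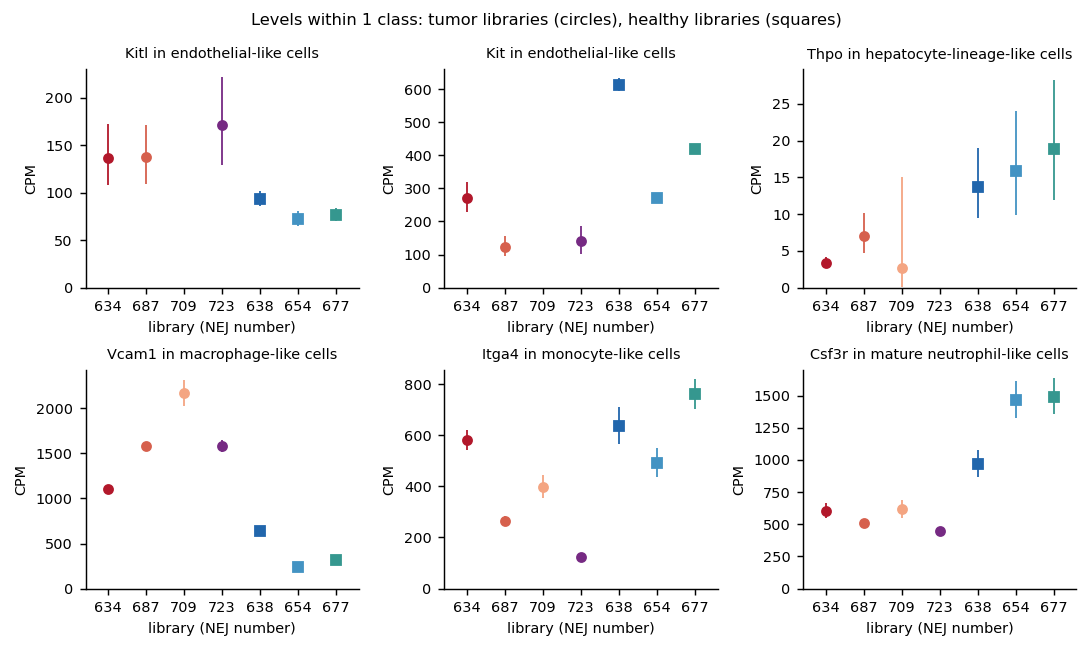
Levels in CPM of 6 genes, each within 1 cell class, by library (circles tumor, squares healthy, bars 95% Poisson intervals, gap where the class had under 20 cells). Vcam1 in macrophage-like cells lies higher in the 4 tumor libraries, Csf3r in mature neutrophil-like cells lies lower, and Kit and Itga4 overlap between the sets.

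Thpo was found where hepatocytes were. Thpo (chromosome 16, 20724454 to 20734511, minus strand) in hepatocyte-lineage-like cells gave 3.31 CPM (2.64 to 4.11) in NEJ634, 7.02 (4.70 to 10.1) in NEJ687 and 2.72 (0.0688 to 15.1, 1 UMI) in NEJ709. The healthy libraries gave 13.7 CPM (9.51 to 19.0) in NEJ638, 15.9 (9.93 to 24.0) in NEJ654 and 18.8 (11.9 to 28.3) in NEJ677. The 3 healthy values were all higher, beside 20.4% of 7672 genes in that class, and the interval of NEJ709 reaches into the healthy range. Thpo reached the class minimum, a mean of 10 CPM, only through the healthy libraries, so no separation is read from it. In NEJ723 Thpo led in cholangiocyte-like cells at 2.55 CPM (1.73 to 3.61), and in NEJ709 in cluster 34 at 0.315 CPM (12 UMIs). The unnamed cluster 22, nearest to hepatocytes by its markers, held 13.1 CPM in NEJ654 (225 cells) and 4.51 CPM in NEJ677 (770 cells). The latter lay inside the tumor range.

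Different clusters held this class in the 2 sets. Cluster 12, led by Sfmbt2, H19, Slc4a9, Amn and Phlda2, held most of it in tumor libraries, and cluster 23, led by Serpina3k, Cyp2c29, Cyp2f2, Ugt2b1 and Cyp2c37, in healthy ones. In NEJ634, the library with both, Thpo was 3.07 CPM in cluster 12 and 9.09 CPM (7 UMIs) in cluster 23. The 10 hepatocyte markers summed to 18782 to 26578 CPM in these cells of the tumor libraries and to 101062 to 149799 CPM in those of the healthy ones, and the part of this difference in the Thpo level was not tested.

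Vcam1, the adhesion ligand, had its highest level in macrophage-like cells in 6 of 7 libraries and was higher in those of each tumor library. These cells held 56.9%, 86.4%, 20.2% and 30.5% of the Vcam1 UMIs of NEJ634, NEJ687, NEJ709 and NEJ723, and 39.9% to 41.8% of those of the healthy libraries. Vcam1 (chromosome 3, 116109949 to 116129688, minus strand) in macrophage-like cells gave 1102 CPM (1079 to 1125) in NEJ634, 1579 (1533 to 1627) in NEJ687, 2170.0 (2029 to 2318) in NEJ709 and 1583 (1517 to 1650.5) in NEJ723. The healthy libraries gave 635 CPM (590.5 to 683) in NEJ638, 236 (218 to 255) in NEJ654 and 318 (295 to 342) in NEJ677. No intervals met between the sets, and 7.46% of 7726 genes were separate in this direction. After thinning to 500 UMIs, 35.5%, 43.2%, 56.2% and 35.4% of macrophage-like cells of the tumor libraries had a Vcam1 UMI, against 24.7%, 7.49% and 12.2% of those of the healthy ones. Unthinned, the shares were 56.9% to 79.9% and 24.5% to 58.6%, and T/NK-like cells had at most 0.840% after thinning.

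The macrophages were of different clusters in the 2 sets. Cluster 7, led by Mmp12, Gdf15, Marco, Colec12 and Vcam1, held Vcam1 at 1094 CPM in NEJ634 and 1709.6 CPM in NEJ687. Cluster 19, led by Il18, Itgad, 1700003F12Rik, Marco and Il18bp, held it at 1219, 1372, 1359.9 and 1412 CPM in the 4 tumor libraries. Cluster 29, led by Cd209g, Folr2, Cxcl13, Cd209f and the Kupffer cell gene Clec4f, held it at 657, 237 and 315 CPM in the healthy libraries. In the library with both, NEJ638, the 24 cells of cluster 19 held 4 Vcam1 UMIs (143 CPM), so cluster 19 was not high in Vcam1 there. The 9 macrophage markers summed to 9759 to 23475 CPM in the tumor libraries and 21056 to 31821 CPM in the healthy ones.

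Vcam1 was also found outside the macrophage-like class. The unnamed cluster 14 came nearest to macrophages by its markers (mean log2 fold 2.64), with endothelium close behind (2.3). Its cells had a median depth of 2.92 times the median of their library. Whether they mix the 2 types was not tested. Cluster 14 held Vcam1 at 449.6, 238 and 231 CPM in NEJ638, NEJ654 and NEJ677 and led in NEJ654. The unnamed cluster 10 held 456 to 938 CPM in NEJ634, NEJ687 and NEJ723, and mesenchymal-like cells held 91.7 to 747 CPM in 5 libraries. Monocyte-like cells gave 62.4, 5.87, 38.2 and 640.3 CPM in the tumor libraries and 6.45, 3.25 and 1.10 CPM in the healthy ones. NEJ723 stood alone at 640.3 CPM, and these cells held 53.5% of its Vcam1 UMIs. The 9 macrophage markers in monocyte-like cells summed to 5978 CPM in NEJ723 and to 199 to 1783 CPM in the other 6 libraries. The 6 monocyte markers in these cells summed to 1664 CPM in NEJ723 and to 1826 to 3458 CPM in the other 6. Endothelial-like cells, a classical site of this molecule, held 195, 96.4 and 36.7 CPM in NEJ634, NEJ687 and NEJ723 and 66.9, 47.9 and 62.9 CPM in the healthy libraries, and the sets overlapped.

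Itga4, the partner of Vcam1, was spread over many blood classes. Itga4 (chromosome 2, 79255426 to 79333123, plus strand) in monocyte-like cells gave 581 CPM (541 to 622) in NEJ634, 263 (243 to 283) in NEJ687, 399 (355 to 446) in NEJ709 and 123 (114 to 132) in NEJ723. The healthy libraries gave 635 CPM (564 to 711), 491 (437 to 549) and 759.7 (704 to 819) in NEJ638, NEJ654 and NEJ677. The sets overlapped, with NEJ634 above NEJ654, and NEJ723 was lowest, the same library whose monocyte-like cells were high in Vcam1 and macrophage markers. The monocyte-like class was cluster 11, led by F13a1, Vcan, S100a4, Cbr2 and Mcub. B-like cells held Itga4 at 179 to 386 CPM and led in NEJ687 at 306 CPM, and cluster 0 led in NEJ723 at 199 CPM.

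Red cell precursors carried Itga4 in each library that had them, at 204, 145, 196 and 159.9 CPM in erythroid-like cells of the tumor libraries and 135 CPM (89.4 to 194) in NEJ638. Endothelial-like cells held 0 to 19.6 CPM and thus marked the low end. In mature neutrophil-like cells Itga4 ranged from 70.3 to 101 CPM in tumor libraries against 162, 323 and 334 CPM in healthy ones, and 9.06% of 5575 genes were separate in this direction. The 7 myelocyte markers in these cells summed to 18052 to 34363 CPM in tumor libraries and to 1142 to 4023 CPM in healthy ones. Myelocyte-like cells held Itga4 at 19.8 to 52.8 CPM in 5 libraries. The part of this difference in the Itga4 level was not tested. Vcam1 in mature neutrophil-like cells stood at 47.8, 10.2, 28.1 and 13.6 CPM in tumor libraries against 0 to 3.67 CPM in healthy ones. Of the 5575 genes, 7.28% were higher in all tumor libraries. The healthy Vcam1 values rest on at most 1 UMI. Vcam1 reached the class minimum, a mean of 10 CPM, only through the tumor libraries, so no separation is read from it. Free RNA of the tumor libraries held Vcam1 at 69.6 to 199 CPM. Its share in these cells, estimated as an upper limit, was 7.64% to 16.5%. The part of free RNA in the Vcam1 level was not tested. Itgb1, which encodes a beta chain that pairs with the Itga4 product, led in endothelial-like or mesenchymal-like cells in 6 libraries at 684 to 1195 CPM. It was also found in monocyte-like cells, at 194 to 539 CPM in 7 libraries. In NEJ709 Itgb1 led in macrophage-like cells at 368 CPM.

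Cxcr4 was carried by lymphoid and myeloid classes, and 1 healthy library stood above the rest. Cxcr4 (chromosome 1, 128588199 to 128592293, minus strand) in B-like cells gave 413, 271, 392 and 357 CPM in the tumor libraries, 2313 CPM (2210.1 to 2419) in NEJ638, 492 in NEJ654 and 369 in NEJ677. All of these were cells of cluster 27, led by the immunoglobulin genes Iglc1, Iglc2 and Igkc with Ms4a1 and Cd79a. Of the other healthy values, NEJ654 lay above the tumor range and NEJ677 inside it. NEJ638 was also highest in monocyte-like cells, at 2216 CPM against 138 to 421 CPM in the other 6 libraries, and in mature neutrophil-like cells, at 974 CPM against 143 to 579 CPM. It was highest in 7 of the 9 classes compared, and endothelial-like and hepatocyte-lineage-like cells were the exceptions.

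Mature neutrophil-like cells gave Cxcr4 at 189.8, 143, 285 and 250.4 CPM in tumor libraries against 974, 579 and 564 CPM in healthy ones, so the sets stayed apart without NEJ638 as well, beside 9.06% of 5575 genes lower in all tumor libraries. Monocyte-like cells gave 298, 138, 297 and 177 CPM against 2216, 421 and 401 CPM, and were also separate, beside 16.8% of 7204 genes that were so in either direction. In NEJ723 these cells held more macrophage marker RNA (5978 CPM) than monocyte marker RNA (1664 CPM). Macrophage-like cells overlapped in Cxcr4, at 153, 42.8, 151 and 39.9 CPM against 265, 22.3 and 18.2 CPM. In B-like and T/NK-like cells only Kit, Itga4 and Cxcr4 met the class minimum. None of them was separate in either direction, while 10.1% of 7443 genes were in B-like and 8.10% of 7164 in T/NK-like cells. In conventional dendritic-like cells Vcam1 and Csf3r met it as well, and none was separate (7.84% of 7092 genes were). The sum of 8 immediate-early genes, chosen after the values were seen, was 1002 CPM in B-like cells of NEJ638 and 1103 to 2679 CPM in those of the other libraries. In monocyte-like cells it was 3119 CPM in NEJ638 and 3048 to 5767 CPM in the other 6. In T/NK-like cells it was 3462 CPM in NEJ638, above the 2112 to 3324 CPM of the tumor libraries, and 3940.3 and 3317 CPM in NEJ654 and NEJ677. In mature neutrophil-like cells the sum was 4422 to 5461 CPM in tumor libraries and 6205, 10172 and 15361 CPM in healthy ones, with Dusp1 at 906 to 951 CPM against 2251 to 3219.5 CPM, so the sum separated the sets there as Cxcr4 did. This rested on Dusp1, since without it the sum was 3901 CPM in NEJ638, inside the 3471 to 4556 CPM of the tumor libraries, and 7921 and 12142 CPM in NEJ654 and NEJ677. The part of these genes in the Cxcr4, Itga4 and Csf3r levels was not tested. The ligand gene Cxcl12 led in mesenchymal-like cells in 5 of 5 libraries with that class, at 189.5 CPM in NEJ634, 611 in NEJ723, 1219 in NEJ638, 1111 in NEJ654 and 896 in NEJ677.

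**Figure D5:**
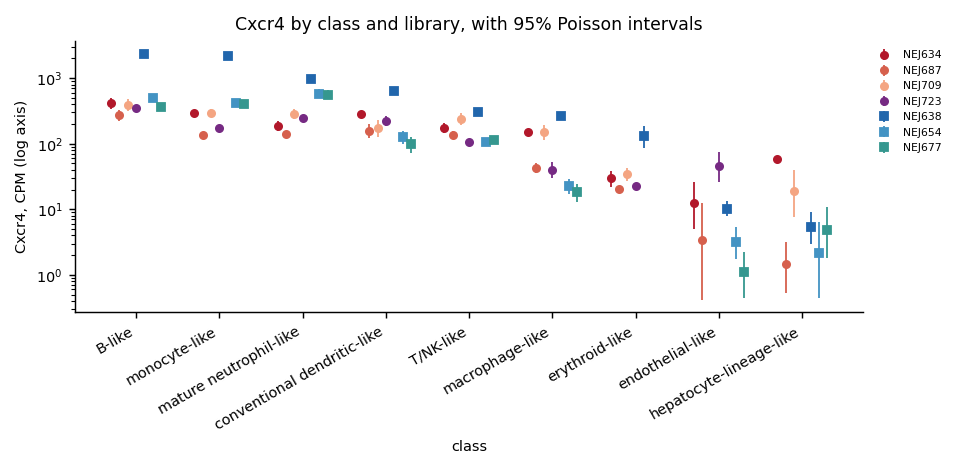
Cxcr4 level in 9 classes by library, in CPM on a log axis with 95% Poisson intervals (circles tumor, squares healthy). The NEJ638 square is the top point in 7 of the 9 classes, while in endothelial-like and hepatocyte-lineage-like cells it is not.

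Csf3r had its highest level in mature neutrophil-like cells in all 7 libraries, far from the next class. Csf3r (chromosome 4, 126024550 to 126044440, plus strand) in mature neutrophil-like cells gave 604 CPM (548 to 665) in NEJ634, 506 (478 to 537) in NEJ687, 617 (552 to 687) in NEJ709 and 447 (420.0 to 476) in NEJ723. The healthy libraries gave 968 CPM (864 to 1080.1) in NEJ638, 1463 (1323 to 1613) in NEJ654 and 1489.8 (1354 to 1636) in NEJ677. The tumor libraries were all lower, with no intervals meeting, as for 9.06% of 5575 genes in this direction. The next category was monocyte-like or myelocyte-like cells in each library, with no more than 81.7 CPM. Promyelocyte-like cells held Csf3r at 19.7 to 34.5 CPM in the tumor libraries, and endothelial-like cells at most 5.35 CPM.

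The mature neutrophil-like cells all fell in cluster 32, led by Asprv1, Cstdc4, Retnlg, Il1f9 and Hcar2, but they differed in their granule genes. The 7 myelocyte markers, which mark younger neutrophils, summed to 18052 to 34363 CPM in these cells of the tumor libraries and to 1142 to 4023 CPM in those of the healthy ones. Fcnb was at 0 in the 3 healthy libraries and in NEJ709. The 9 mature neutrophil markers, all detected, summed to 23852 to 41484 CPM in tumor libraries and to 14790.3 to 16554 CPM in healthy ones, and in NEJ723 they stood at 24174 CPM, below its myelocyte sum of 34363 CPM. The part of these differences in the Csf3r, Cxcr4 and Itga4 levels was not tested. When cells were clustered at the finer resolution, Csf3r in this class was 953, 934, 985 and 702 CPM against 1059, 1471 and 1512 CPM. The point values stayed apart but the gap was smaller, and whether the intervals met is not given here. Thinned to 500 UMIs, 24.3% to 33.1% of these cells in tumor libraries and 37.0% to 55.7% in healthy ones had a Csf3r UMI, against 62.0% to 84.6% unthinned over all 7 libraries and at most 0.840% in thinned T/NK-like cells. The ligand gene Csf3 led in the same class in 6 libraries, at 89.8, 88.0, 43.1 and 57.8 CPM in tumor libraries and 39.7 and 25.7 CPM in NEJ638 and NEJ654, and no category of NEJ677 had more than 3 UMIs.

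A list of 42 other genes of the niche and of these pathways gave the wider setting. Of these, 8 were led by 1 class in every library that had it, as was so for 14.8% of 15189 genes, namely 3 of 13 niche ligands, 3 of 13 receptors, 1 of 10 signalling genes and 1 of 6 genes of oxygen sensing and erythroferrone. Endothelial-like cells led for the Notch ligand Dll4 (79.8 to 122 CPM), the receptors Tek (205 to 372 CPM) and Notch1 (193 to 271 CPM) and the oxygen-sensing factor Epas1 (305 to 456 CPM) in 6 of 6 libraries, beside Kitl and Kit. Basophil or mast-like cells led for Il6 (165 to 698 CPM) and Jak2 (162 to 960.3 CPM) in the 4 libraries with the class. Mature neutrophil-like cells led for the adhesion receptor Cd44 (495 to 1477 CPM) in 7 of 7. Stat5a led in T/NK-like cells in 4 of 7 libraries at 38.7 to 69.2 CPM. Erfe, the erythroferrone gene and a target of erythropoietin signalling in red precursors, led in erythroid-like cells of the 4 tumor libraries at 35.4 CPM in NEJ687, 35.2 in NEJ709, 18.0 in NEJ723 and less in NEJ634. No category of a healthy library had more than 3 Erfe UMIs. But the healthy libraries held 65, 2 and 0 erythroid-like cells, so no difference between the sets is read from this.

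The genes whose level ran most closely with each of the 8 were found over 103 pools of 1 class and 1 library with at least 50 cells, by Pearson's r of log2(CPM + 1) against 14286 genes. Pools of 1 library share its depth and free RNA, and the values of r are descriptions. Epor ran with Tal1 (0.84), Pnp2 (0.79) and Dpf3 (0.77), and Tal1 is a factor of red cell development. Kitl ran with Spats2 (0.89), Spats2l (0.89) and Sparc (0.88), and Kit with Plcb4 (0.80), Gnb4 (0.75) and Rcn1 (0.75). Thpo ran with the liver genes Slc25a48 (0.85), Avpr1a (0.83) and Cyp4a14 (0.82). Vcam1 ran with Ccdc148 (0.84), Serpinb6a (0.83) and Epb41l3 (0.82). Itga4 and Cxcr4 both had the blood factor Runx1 among their nearest genes (0.88 in each), with Akap13 (0.85) and Ikzf1 (0.85) for Itga4 and Stk17b (0.89) and Akna (0.87) for Cxcr4. Csf3r ran with the myeloid genes C5ar1 (0.91), Cd300lb (0.90) and Arg2 (0.90).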

How the data were processed

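The authors deposited raw gene-by-barcode matrices of whole UMI counts, 1 per library, made with Cell Ranger (6.0 in the submitters' processing notes, while the file headers name another release), with introns counted according to the study's methods. The genome build of the matrices is not given in the sources used here, and coordinates are those of GENCODE M21 on GRCm38. Each matrix was mapped to its library by the sample record, and 0 columns were of no sample. The study's group of each library is not in the labels, so all 7 were left ungrouped and no test was run. The 4 libraries that the study's text names as tumors and the other 3, inferred to be healthy, are set side by side as a description.

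A barcode was called as a cell above 1 part in 10 of the UMI count at the 99th percentile among the 3000 largest, or by a multinomial test against barcodes of ranks 45000 to 90000 (from 500 UMIs, at most 20000 barcodes per library, a limit reached in NEJ634, NEJ709 and NEJ723, 10000 Monte Carlo draws, adjusted p of 0.01). Cells with at most 500 UMIs or over 20% mitochondrial UMIs were removed, as were barcodes kept in more than 1 library and the highest doublet scores at 0.8% per 1000 cells (8857 cells), since the doublet caller's own threshold marked at most 0.0631% in 6 libraries and 10.00% in NEJ634. Counts were scaled to 10000 per cell, and 2000 variable genes, 40 components, 15 neighbours and Leiden resolution 1 gave the clusters, without 51 genes (the 9 members and 42 pathway genes). A cluster was named where its mean log2 fold over 149 markers of 18 classes was at least 1.5 with a lead of 1 and 3 markers raised 2-fold at 10 CPM. Clusters shallow for their library with none of the class markers among their leading genes stayed unnamed, cluster 16 among them. So did clusters with more leading genes from the markers of another class.

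Counts were summed per library and class (at least 20 cells) and divided by the UMIs of the same pool. Intervals are exact Poisson for CPM and Clopper-Pearson for shares at 95%, and the limit for a count of 0 is 3 counts. UMIs of a droplet library are not independent of amplification and capture, so intervals cover counting error only. The named genes were the 9 members, pathway genes led by 1 class in every library with it or partnering a member, the 3 genes most correlated with each member, and the 5 leading genes of clusters that lead for a member. Members, lists and markers were chosen with earlier results of these data known. The result for 1 pathway gene is not reported here. The cell calling, the intervals and the choice of a leading class were tested on simulated data. Alternatives are given after the report. Scanpy 1.11.5 and scikit-learn 1.9.0 were run in Python 3.11.15, with pandas 2.3.3, SciPy 1.17.1 and NumPy 2.4.6, and figures were drawn in Matplotlib 3.10.9.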

Additional observations from a re-analysis of the deposited data

Results flagged for a closer look

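Barcodes that were not called as cells also held UMIs of 8 of the 9 genes, which are data outside the comparisons of the report. They held 1963 Epor UMIs, 1682 Kitl UMIs, 3111 Kit UMIs, 265 Thpo UMIs, 19692 Vcam1 UMIs, 10289 Itga4 UMIs, 15334 Cxcr4 UMIs and 4075 Csf3r UMIs. As a share of each gene's UMIs in all barcodes, this was 21.3% for Epor, 27.6% for Kitl, 16.2% for Kit, 41.5% for Thpo, 31.0% for Vcam1, 23.6% for Itga4, 33.1% for Cxcr4 and 29.6% for Csf3r, beside 34.2% for all genes together. Thpo was the gene with a share above that of all UMIs. The single Epo UMI was inside a called cell.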

How the results depend on the processing

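Of the 63 pairs of gene and library, a leading class or cluster was found in 56, of which 52 were named classes, and 35 kept the same leading one when cells were called by the 99th percentile rule alone, which leaves fewer cells. Under 6 other alternatives, 50 to 54 of them kept it. Leaving out NEJ709, or counting named classes only (chosen after seeing the data), takes out pairs by construction and tests nothing here. The count of levels above free RNA went from 37 to 29 under the 99th percentile rule and to 32 without haemoglobin and mitochondrial UMIs. The 24 genes listed as most like a member shared 13 with the list at a pseudocount of 10 CPM and 15 with that from pools of at least 100 cells, so that list depends on both choices. For Epor, Kitl, Kit, Thpo, Vcam1 and Csf3r, the share of cells with a UMI in the leading class lay above that of T/NK-like cells by its interval in 23 of 42 pairs of gene and library after thinning to 500 UMIs, in 31 after thinning to 1000 UMIs and in 39 without thinning. Under the 99th percentile rule the one mature neutrophil-like cluster held 2906 cells, 99.5% of them from NEJ709, with Csf3r at 33.2 CPM there and 29.7% haemoglobin, and a cluster with all 7 myelocyte markers raised was left unnamed. The comparison of Csf3r between the sets in this class could therefore not be made under that rule, and the cause was not tested. Of the 63 levels over all cells, 12 moved by over 1.5 times under that rule and 13 when cells were averaged with equal weight. Kit in NEJ723 went from 22.7 to 42.4 CPM and Cxcr4 in NEJ634 from 111 to 59.2 CPM under the 99th percentile rule. A total without haemoglobin and mitochondrial UMIs moved 8 of these levels, and 4 of 51 levels within classes, by over 1.5 times. Counts of genes separate between the 2 sets stayed between 3 and 5, against 3 over all cells and 4 among the 8 genes within the class that most often led. Over all cells 9.33% of genes were higher and 37.1% lower in every tumor library, so 3 of 8 is no more than that background. Within the classes of those 4 genes, 7.46% to 20.4% of genes were separate in the same direction. Thpo, which is among them, reached the class minimum only through the healthy libraries, so no separation is read from it. No paired analysis was possible because the labels give no groups and the replicate numbers only follow the order of the samples. Few UMIs or cells limit Epo, Thpo, the tumor endothelium, Epor in erythroid-like cells of NEJ638 and Vcam1 in healthy neutrophil-like cells, among others.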
